A study of Mus musculus with 6 samples.

Results

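The GIMAP genes, which encode GTPases of immunity-associated proteins, were read in regulatory T cells (Tregs) of mouse liver as the 8 rows of the count table named Gimap1 and Gimap3 to Gimap9. All 8 were present among 13605 genes. The 6 libraries came from untreated Tregs of mice at 14 months of age, 3 labelled Altre WT (wild type) and 3 labelled Altre knockout, Altre itself being a lncRNA that Tregs express. The question put to the GIMAP genes is whether their transcript levels differ between these genotypes. The sources used here do not give the strain, the way the knockout was made or the sorting of the cells. They also do not name the animal behind each library, so that the p-values below capture only how far these samples spread, which may be technical.

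GIMAP proteins are GTPases of lymphocytes that sit in a single gene cluster and are known for keeping mature T cells alive. Several act at internal membranes such as the lysosome or the endoplasmic reticulum, and Gimap5 is the best studied, since rodents that lack it lose peripheral T cells. They share a guanine nucleotide-binding domain whose phosphate-binding loop holds the phosphates of GTP.

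On mouse build GRCm38 the cluster lies on chromosome 6 from 48647234 to 48770851, a span of 123.618 kb. Gimap8, Gimap9, Gimap4, Gimap7, Gimap1 and Gimap5 lie on the plus strand, and Gimap6 and Gimap3 on the minus strand. The coding bases of the phosphate-binding loop are shown as a feature that all 8 genes share. Each loop was found by a search for the amino acid pattern of such loops, which itself fixes part of the identical bases. Each line below gives 24 bases, 5′ to 3′ in the direction of the gene, with the 11 bases that are identical in all 8 genes in capitals. Gimap8 holds 3 such stretches, of which the first is given.
Gimap8 (chr6:48650256-48650279, plus strand): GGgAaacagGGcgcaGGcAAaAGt
Gimap9 (chr6:48677523-48677546, plus strand): GGgAagactGGaaatGGgAAgAGt
Gimap4 (chr6:48690421-48690444, plus strand): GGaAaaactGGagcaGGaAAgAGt
Gimap6 (chr6:48702750-48702773, minus strand): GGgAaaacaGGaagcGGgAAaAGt
Gimap7 (chr6:48723524-48723547, plus strand): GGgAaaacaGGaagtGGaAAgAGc
Gimap1 (chr6:48742552-48742575, plus strand): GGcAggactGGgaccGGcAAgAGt
Gimap5 (chr6:48752594-48752617, plus strand): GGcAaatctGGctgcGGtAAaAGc
Gimap3 (chr6:48765887-48765910, minus strand): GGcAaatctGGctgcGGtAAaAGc
The loops of Gimap3 and Gimap5 are the same base for base. The other 6 genes each differ from that pair and from one another.

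Gimap3 and Gimap5 are close relatives, and this touches how far their counts can be told apart. Their coding sequences were identical at 88.9% of 899 aligned bases, and they share an unbroken identical run of 140 bases. The longest identical coding run of any other pair of the 8 genes was 17 bases. The run is printed with 50 bases on either side, and the 4 bases that differ between the genes are in capitals.
Gimap3 (chr6:48765631-48765870, minus strand): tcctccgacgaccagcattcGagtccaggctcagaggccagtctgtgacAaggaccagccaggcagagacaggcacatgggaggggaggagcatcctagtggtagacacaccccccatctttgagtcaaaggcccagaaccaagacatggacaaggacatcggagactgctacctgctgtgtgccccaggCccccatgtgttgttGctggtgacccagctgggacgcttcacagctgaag
Gimap5 (chr6:48752634-48752873, plus strand): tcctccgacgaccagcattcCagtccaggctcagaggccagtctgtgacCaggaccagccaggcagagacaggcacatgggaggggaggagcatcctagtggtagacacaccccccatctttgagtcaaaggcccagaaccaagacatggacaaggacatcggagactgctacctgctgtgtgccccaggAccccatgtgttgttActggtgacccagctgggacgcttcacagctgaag
Of the distinct 50-base words in the annotated transcripts, 7.52% of those of Gimap3 were also found in Gimap5 and 4.53% of those of Gimap5 in Gimap3. The other 6 genes shared no 50-base word with another GIMAP gene. The sources used here do not give how reads that match both genes were counted, so the split of counts between Gimap3 and Gimap5 is uncertain. A gene annotated as a read-through, Gm28053, runs over Gimap7, Gimap1 and Gimap5 and shares 3.48%, 6.44% and 3.69% of their exon bases. The antisense gene Gimap1os covers 36.0% of the exon bases of Gimap1. Whether counting used the strand is likewise not given, so over that part reads of Gimap1os cannot be told from those of Gimap1.

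The libraries held 25315425 to 30870786 counts over all rows, and the GIMAP genes took 0.786% to 0.937% of the counts of named genes. The T cell marker Cd3e, a chain of the T cell receptor complex, averaged 1439 ± 167 CPM in wild type against 1562 ± 307 CPM in knockout (SD, n = 3), where CPM is the count relative to the TMM-scaled library total. Foxp3, which defines Tregs, averaged 79.2 ± 7.91 and 108 ± 32.5 CPM. Over all 9 T cell and Treg markers, 5 had a higher and 4 a lower mean in knockout. Of these markers 0 were called, beside 0% of all genes tested (edgeR). Their summed levels were 9786 to 11512 CPM in wild type and 9655 to 11105 CPM in knockout. The other CD3 chains Cd3g and Cd3d had lower means in knockout, at log2 fold changes of -0.19 ± 0.14 and -0.16 ± 0.16 (SE). Il2ra, a chain of the IL-2 receptor, and the co-receptor Cd4 had higher ones, at 0.51 ± 0.14 and 0.44 ± 0.13 (SE), and were the 2 markers of the 9 with an unadjusted p under 0.05. No row carried the name Altre, so the level of Altre is not analysed here and gave no check of the genotypes. Other lymphocytes also express GIMAP genes. Summed over B cell markers (4 of 6 tested), the wild-type libraries had 58.2 to 83.5 CPM and the knockout libraries 65.3 to 68.4 CPM. Most of that sum was Cd79b, which averaged 62.5 CPM over the 6 libraries. Cd79a, Ms4a1 and Pax5 averaged 3.48, 1.84 and 0.631 CPM, so the sum says little about them. Of the 4 B cell markers, 2 had a higher and 2 a lower mean in knockout. The summed level of CD8 T and NK cell markers (4 of 7 tested) ran from 34.6 to 36.8 CPM in wild type and from 42.1 to 48.8 CPM in knockout. Of these 4, 3 had a higher mean in knockout, while Gzma had a lower one, at 1.27 against 3.04 CPM in wild type. Macrophage and Kupffer cell markers (12 of 13 tested, Clec4f having no row) summed to 194 to 224 CPM in wild type against 236 to 354 CPM in knockout, and 11 of the 12 had a higher mean in knockout. Liver endothelial markers (4 of 8 tested, with no row for Lyve1, Clec4g, Kdr or Cdh5) summed to 104 to 127 and 141 to 160 CPM, most of it Pecam1, which T cells also express. None of the 6 hepatocyte markers had a row. The part of other cells in the GIMAP levels was not tested, and in bulk samples fewer cells of a type and less RNA per cell cannot be told apart.

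The GIMAP genes were among the more abundant transcripts of these Tregs, with mean CPM at percentiles 91.0 to 99.8 of the genes tested, and no member differed detectably between the genotypes. Compared per length, as CPM per kilobase of annotated exon, their levels spread over 22.5-fold. Gimap3, a relative of Gimap5 reported to bind anti-apoptotic Bcl-2 proteins, was highest at 995 ± 129 in wild type and 1034 ± 28.2 in knockout, rank 42 of 12676 genes. Gimap4, reported to speed the death of T cells, followed at 915 ± 107 and 872 ± 7.24, and its libraries overlapped those of Gimap3 in wild type but not in knockout. Gimap6, which binds an autophagy protein of the ATG8 family, came next at 616 ± 91.9 and 575 ± 50.5, below every library of Gimap4. Gimap1, needed for the survival of mature T and B cells, had 259 ± 22.0 and 241.3 ± 11.8. Below it, Gimap7 had 221 ± 10.3 and 207 ± 15.4, and Gimap9, next in this ranking, had 195 ± 12.8 and 193.3 ± 16.1. The libraries of Gimap7 and Gimap9 overlapped in knockout. Gimap8, which carries 3 GTPase loops, and Gimap5 were lowest and overlapped throughout. Gimap8 had 45.0 ± 7.39 and 47.2 ± 5.85, and Gimap5 had 45.6 ± 10.8 and 44.7 ± 2.00 CPM per kilobase of exon. Even these ranked 1328 and 1356 of 12676 genes. With the longest protein-coding transcript as the length, a choice added after seeing the data, Gimap5 lay above Gimap8, at 95.9 against 54.0. That length also raised Gimap1 from a mean of 250.3 over the 6 libraries to 515 and Gimap7 from 214 to 392, with their places in the order as before.

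**Figure D1:**
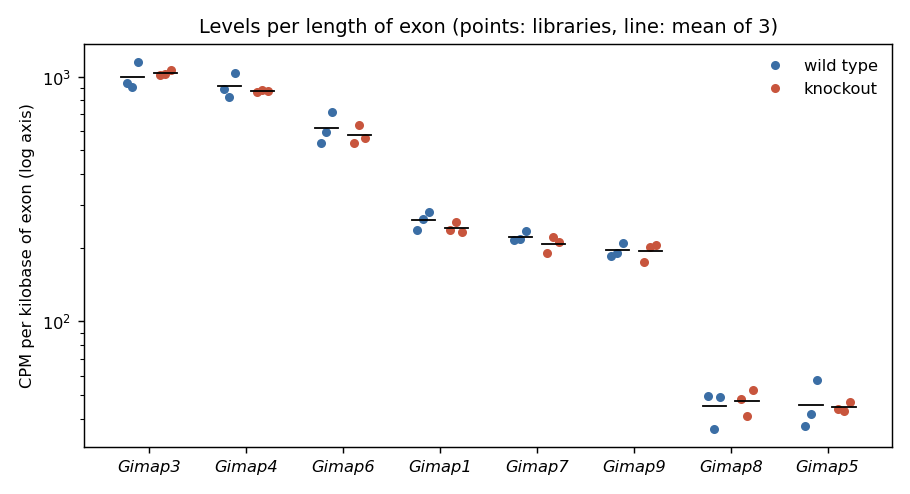
Level of each GIMAP gene in CPM per kilobase of annotated exon on a log axis, with 1 point per library (3 wild type, 3 knockout) and a line at the mean of 3. Gimap3, Gimap4 and Gimap6 stand above the others and Gimap8 and Gimap5 lie lowest, in both genotypes.

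The values per library show how close the genotypes were. Gimap5, the lysosomal member whose loss costs rodents their T cells, had 155, 173 and 239.6 CPM in the wild-type libraries 1, 2 and 3 and 182, 179 and 195 CPM in knockout replicates 1, 2 and 3. The knockout libraries lay inside the range of the wild-type libraries, whose spread came from a high replicate 3. Its log2 fold change, given here as knockout over wild type, was -0.029 ± 0.16 (SE) with a 95% interval from -0.39 to 0.33 (adjusted p = 0.9995, edgeR quasi-likelihood test with Benjamini-Hochberg adjustment over 12789 genes). Gimap3 had 2422, 2328 and 2946 CPM in wild type against 2604, 2643 and 2745 CPM in knockout. Here too the knockout libraries fell between the lowest and the highest wild-type library. The log2 fold change was 0.054 ± 0.11 (SE), with an interval from -0.18 to 0.29.

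Gimap1 had 725, 807 and 859 CPM in wild type against 728, 783 and 714 CPM in knockout. The genotypes overlapped, and only knockout replicate 3 lay below every wild-type library. Its log2 fold change of -0.10 ± 0.10 (SE) was the most negative of the 8, with an interval from -0.34 to 0.13 and an adjusted p of 0.975 (edgeR). Gimap4 had 1627, 1518 and 1899 CPM in wild type against 1587, 1614 and 1604 CPM in knockout. The 3 knockout libraries were nearly alike, with an SD of 13.3 CPM against 197 CPM in wild type. Its log2 fold change was -0.070 ± 0.10 (SE), with an interval from -0.30 to 0.16.

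Gimap6 had 1878, 2078 and 2507 CPM in wild type against 1869, 2208 and 1953 CPM in knockout, with the highest value again in wild-type replicate 3. Its log2 fold change was -0.10 ± 0.12 (SE), with an interval from -0.37 to 0.17. Gimap7, whose human counterpart stimulates GTP hydrolysis by another GIMAP protein, had 498, 503 and 542 CPM in wild type against 442, 512 and 488 CPM in knockout. Knockout replicates 1 and 3 lay below the wild-type libraries and replicate 2 among them. Its log2 fold change was -0.097 ± 0.10 (SE), with an interval from -0.33 to 0.14.

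Gimap8 had 183, 135 and 182 CPM in wild type against 178, 152 and 195 CPM in knockout. Its lowest value in each genotype was that of replicate 2. The log2 fold change was 0.071 ± 0.15 (SE), the most positive of the 8, with an interval from -0.27 to 0.41. Gimap9 had 305, 313 and 344 CPM in wild type against 287, 330.1 and 335 CPM in knockout, where knockout replicate 1 was lowest and the rest overlapped. Its log2 fold change was -0.014 ± 0.11 (SE), with an interval from -0.27 to 0.24.

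**Figure D2:**
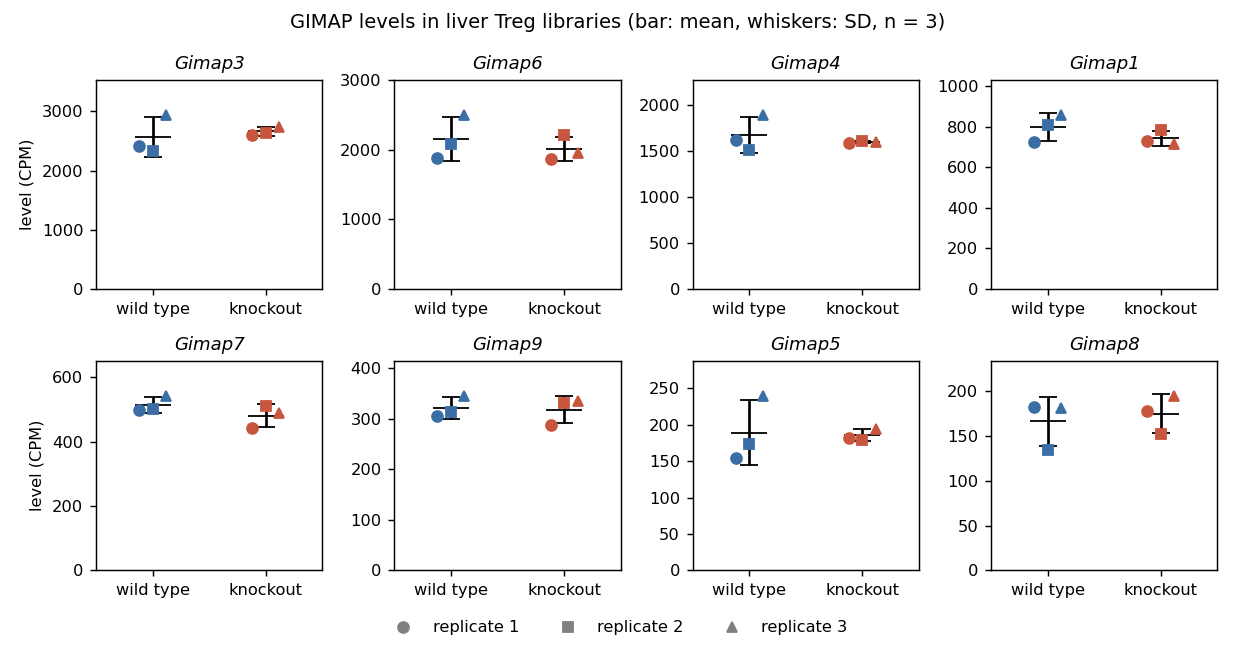
Level of each GIMAP gene in CPM, 1 panel per gene with axes from 0, with 1 point per library (circle, square and triangle for replicates 1, 2 and 3), a bar at the mean and whiskers of 1 SD (n = 3). In every panel the wild-type and knockout libraries overlap, and wild-type replicate 3 is the highest library for all genes except Gimap8.

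By the test across all genes, 0 of the 8 members were called at an adjusted p of 0.05, beside 0% of the 12789 genes tested (edgeR). At an unadjusted p under 0.05, edgeR found 0 of the 8 and 5.82% of all genes. DESeq2 with genotype alone called 0 members and 0.339% of genes, and limma-voom called 0 members and 0 genes. With the replicate number as a block, 0 members were called beside 0.125% of genes by edgeR and 1.85% by DESeq2. The authors' deposited table also has 0 of the 8 past its adjusted p of 0.05, against 1.81% of its 13623 rows, with log2 fold changes as knockout over wild type from -0.11 (Gimap1) to 0.073 (Gimap8). In 0 of the 8 did the libraries of the genotypes fall apart without overlap, against 10.3% of all genes. Means were higher in knockout for 2 members and lower for 6, at a median log2 fold change of -0.049, against 0.0039 over all genes tested. That lean depended on wild-type replicate 3: without it 6 members were higher and 2 lower, with a median of 0.021, and without wild-type replicate 2 all 8 were lower, with a median of -0.10.

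A missed threshold does not show that the genotypes are alike, so the intervals bear the result. On the linear scale the 95% intervals of the 8 genes together ran from 0.763-fold (Gimap5) to 1.33-fold (Gimap8). All 8 lay within 1.5-fold in either direction, a bound chosen after the values were seen, as did the intervals of 34.4% of all genes tested. The members are deeply counted and averaged between 4664 (Gimap8) and 71044 (Gimap3) counts per library. Their 95% intervals were 0.46 to 0.72 log2 units wide, against a median of 0.97 for the 10690 genes averaging at least 50 counts.

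**Figure D3:**
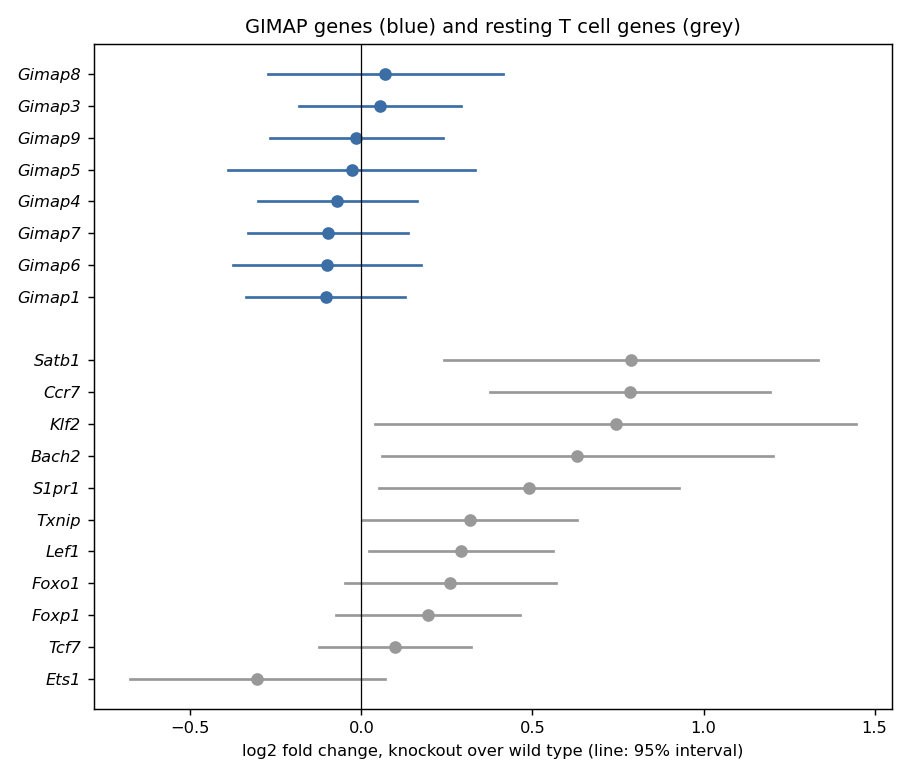
Log2 fold change, knockout over wild type, as a point with its 95% interval (edgeR, 3 libraries per genotype) for the 8 GIMAP genes in blue and 11 resting T cell genes in grey. All 8 GIMAP intervals hold 0, while 7 of the 11 grey ones lie above it without passing the adjustment over all genes.

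The family total overlapped between the genotypes as its members did. The 8 genes summed to 7792, 7855 and 9519 CPM across the 3 wild-type libraries and to 7877, 8420.5 and 8229 CPM across those of the knockout. Wild-type replicate 3 stood highest and the others lay close together, so that the highest library was 1.22 times the lowest. Gimap3, Gimap6 and Gimap4 gave 30.6%, 25.6% and 20.1% of the GIMAP counts in wild type and 32.6%, 24.6% and 19.6% in knockout. The share of Gimap3 was the 1 share of 8 whose genotypes did not overlap, at 31.1%, 29.6% and 30.9% in wild type and 33.1%, 31.4% and 33.4% in knockout. It was singled out after its values were seen, and its exact two-sided permutation p of 0.1 is the smallest that 3 against 3 libraries allow. For levels in CPM, the genotypes did not overlap in 10.3% of all genes tested, and those of Gimap3 overlapped. The shares of the other 7 genes overlapped, with exact permutation p-values from 0.2 (Gimap6) to 1 (Gimap5). The part of reads that match both Gimap3 and Gimap5 in these shares was not tested.

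**Figure D4:**
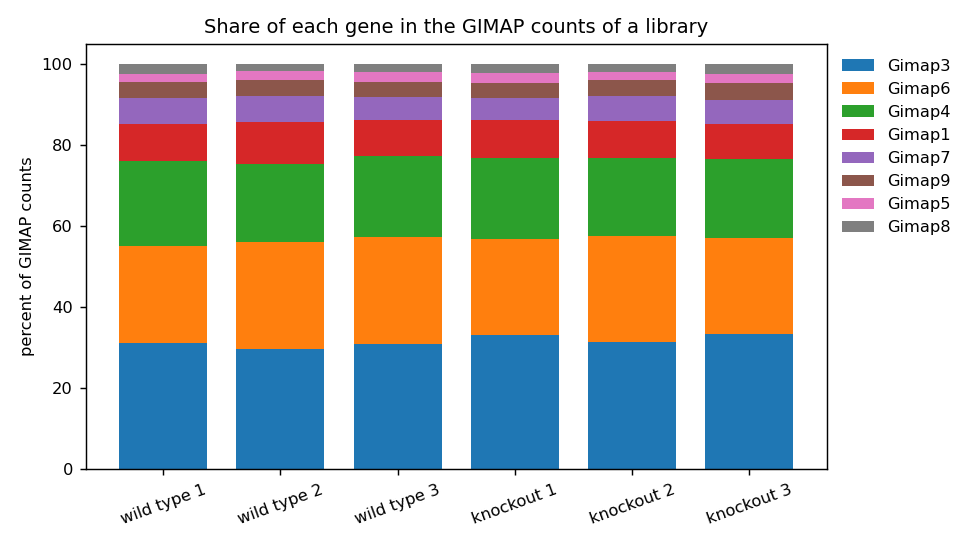
Stacked bars of the percent of all GIMAP counts in a library that each gene takes, for 3 wild-type and 3 knockout libraries. The order of the genes holds in every library for the 6 most abundant ones, and Gimap3 takes between 29.6% and 33.4%.

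The spread of the members from library to library was set beside that of all genes averaging at least 50 counts, a set not matched for abundance. The SD of log2 CPM within genotypes ran from 0.090 (Gimap7) to 0.24 (Gimap5), and all 8 lay below the median of 0.26 for the genes averaging at least 50 counts. Gimap7 stood at percentile 4.67 of those genes and Gimap5 at percentile 45.0. Of the 8 genes, 7 were highest in wild-type replicate 3, which lay 0.19 above the 6-library mean on the log2 scale for the average member, while the other libraries lay between -0.079 and 0.022. Gimap8 alone was highest in knockout replicate 3, while its lowest library, wild-type replicate 2, was also that of Gimap3 and Gimap4. Gimap8 differed most from the average profile, by a root mean square of 0.17 log2 units over the 6 libraries, against 0.038 for Gimap4. In 6 of the 8 genes the wild-type SD in CPM was the larger, the exceptions being Gimap7 and Gimap9. The 5 genes closest to the average GIMAP profile, of 10682 compared over 6 libraries, were Dera, Puf60, Ppm1a, Dtd2 and Ythdf2, with root mean square differences of 0.028 to 0.034 log2 units. Their own log2 fold changes ran from -0.031 (Dtd2) to 0.0061 (Puf60), and values near that of the average profile follow from this choice.

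Genes of the survival machinery around the GIMAP proteins were read in the same fit. They include Bcl-2 family members, the IL-7 and IL-2 receptor chains with their kinases and STAT5, and the autophagy proteins Gabarapl2 and Map1lc3b. Of the 19 genes in this list, 12 averaged more in knockout and 7 less, at a median log2 fold change of 0.018. At an adjusted p of 0.05 there were 0, beside 0% of all genes tested (edgeR). At an unadjusted p under 0.05 there were 2, against 5.82% of all genes (edgeR). The libraries of the genotypes did not overlap in 4 of the 19, against 10.3% of all genes. Il7r, the receptor chain for the T cell survival cytokine IL-7, had a log2 fold change of -0.32 ± 0.11 (SE), and the anti-apoptotic gene Bcl2 averaged 74.8 ± 4.27 CPM in wild type against 96.1 ± 7.77 CPM in knockout (log2 fold change 0.36 ± 0.13, SE). Bak1, a pore-forming effector of apoptosis, averaged 23.4 ± 1.06 and 32.1 ± 10.6 CPM. Gabarapl2, the ATG8-family protein reported to bind Gimap6, averaged 122 ± 10.1 and 122 ± 10.8 CPM.

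Transcripts typical of resting T cells, a state in which GIMAP genes are known to be well expressed, are set beside the GIMAP genes here. This list was chosen with earlier results of these data known. Of 11 such genes, 10 had a higher mean in knockout, and the list's median log2 fold change was 0.32, with 7 at an unadjusted p under 0.05 and 0 at an adjusted one (edgeR). Ets1 had the lower mean, at a log2 fold change of -0.30 ± 0.17 (SE). Over all 12789 genes tested, 6496 had a higher mean in knockout and the median was 0.0039. Of all genes, 5.82% had an unadjusted p under 0.05 and 0% an adjusted one (edgeR). Ccr7, a chemokine receptor of lymph node homing, had a log2 fold change of 0.79 ± 0.18 (SE), with an adjusted p of 0.756 by edgeR and 0.0196 by DESeq2. Satb1, a chromatin organiser, had 0.79 ± 0.24 (SE), and S1pr1, a receptor for exit from lymphoid tissue, averaged 152 ± 42.2 CPM in wild type against 213 ± 20.9 CPM in knockout. Whether the 2 lists differ was not tested. The higher summed level of macrophage markers in knockout stands beside these values, and its part in them was not tested. Of 14 other GTPases and GTPase regulators of T cells, 0 were called by edgeR, beside 0% of all genes. Among these 14, 8 were higher and 6 lower, at a median log2 fold change of 0.024. The 3 with the smallest p-values all had a lower mean in knockout. Rap1a, a small GTPase of integrin control, averaged 164 ± 31.0 CPM in wild type against 116 ± 21.1 CPM in knockout. Its adjusted p was 0.842 by edgeR and 0.00618 by DESeq2 with the replicate number as a block. Rap1b, its relative, averaged 99.5 ± 32.0 and 73.4 ± 5.36 CPM, and Dock10, an exchange factor, 143 ± 25.8 and 120.4 ± 4.50 CPM.

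The genes around the cluster were far less abundant. Within 250 kb of either end, 14 other listed genes were tested, and 0 were called beside 0% of all genes (edgeR). Of the 14 neighbours, 5 had a higher and 9 a lower mean in knockout, at a median log2 fold change of -0.10. Together they summed to 129 to 165 CPM in wild type against 127 to 189.5 CPM in knockout. Zfp775, which encodes a zinc finger protein, averaged 8.30 ± 1.55 CPM in wild type against 12.7 ± 4.64 CPM in knockout and had the smallest p of the 14 (adjusted p = 0.890, edgeR). Lrrc61 averaged 27.4 ± 7.15 and 34.6 ± 5.23 CPM, and Zfp467 18.9 ± 4.75 and 14.7 ± 2.05 CPM. The membrane protein genes Tmem176a and Tmem176b, beyond Gimap3, had log2 fold changes of -0.33 ± 0.27 and -0.29 ± 0.29 (SE). The read-through gene Gm28053 averaged 8.56 ± 0.133 CPM in wild type against 7.56 ± 1.67 CPM in knockout. Per kilobase of exon it averaged 8.15 CPM over the 6 libraries, under Gimap7, Gimap1 and Gimap5 at 214, 250 and 45.1. How reads that it shares with these genes were counted is not given, so its level is uncertain. Krba1, Repin1 and AI854703 had log2 fold changes of 0.52 ± 0.48, 0.15 ± 0.54 and -0.13 ± 0.33 (SE). Aoc1, Sspo, Atp6v0e2, Gm44226 and 4833403J16Rik averaged under 2 CPM over the 6 libraries.

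**Figure D5:**
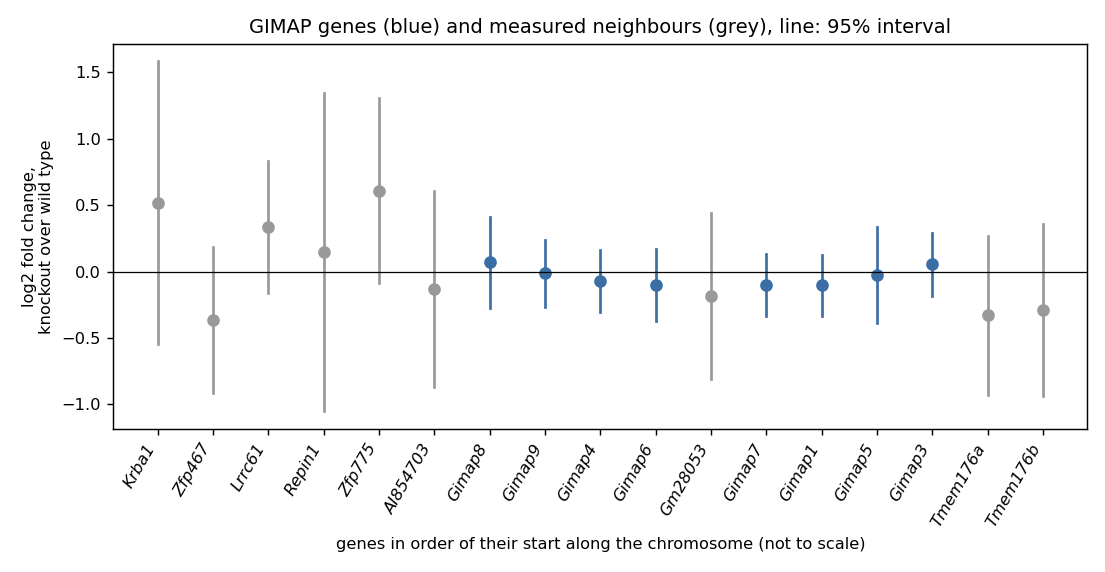
Log2 fold change, knockout over wild type, with its 95% interval for the 8 GIMAP genes (blue) and the 9 neighbours averaging at least 2 CPM (grey), in order along the chromosome and not to scale. The GIMAP intervals are the narrowest, and every interval shown holds 0.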

How the data were processed

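The authors deposited 1 table of 13623 rows with whole-number counts per gene for the 6 libraries, made, per the labels' protocols, from micro-column RNA with a SMARTer kit. Per the submitters' processing notes, cutadapt, STAR, DESeq2 and mm10 were used in ways not detailed. The sources used here do not give the counting tool, annotation or use of strand. Further columns deposited by the authors, per the file headers, are a mean of normalized counts (a signal), log2 fold changes with a standard error, a Wald statistic (a score), and p-values with and without adjustment. Of 1645 rows past 1 log2 unit, the second deposited log2 column, used here, had the sign of knockout over wild type in 1570. Rows whose name had become a date (18, 0.294% to 0.308% of a library's counts) were left out.

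Members and lists were chosen with earlier results of these data known. The count test was edgeR 4.0.16 in R 4.3.3 (TMM, filterByExpr, quasi-likelihood F test, genotype only, Benjamini-Hochberg over 12789 genes), checked on simulated counts. DESeq2 1.42.0 and limma 3.58.1 (voom) were alternatives, beside other scalings, no filter, the replicate number as a block and each library left out. SE is the absolute log2 fold change over the square root of F, and log2 CPM uses a prior count of 2. Exon lengths (union of exons, 99.1% of genes matched), sequences and positions are those of GENCODE M21 for GRCm38, the mm10 assembly. Libraries of a genotype differed beyond sampling noise (chi-square per gene 43.2 to 79.0). Named genes are all members, the 3 smallest p-values of each list, the measured neighbours, the 5 nearest profiles, Foxp3 and Cd3e. Gabarapl2, Ets1 and the marker genes were named beyond that rule, after values were seen. A gene of the resting T cell list is not reported here, and the list's counts leave it out. The neighbour list was taken from the annotation, since some genes first listed lie elsewhere.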

Additional observations from a re-analysis of the deposited data

How the results depend on the processing

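No GIMAP gene was called under any of the 14 alternatives, and the smallest adjusted p of a member was 0.840 (Gimap1, edgeR with the replicate number as a block). Directions that turned were all of small, uncalled values. Without wild-type replicate 3 the log2 fold changes became 0.0135 for Gimap4, 0.1655 for Gimap5, 0.0111 for Gimap6 and 0.0279 for Gimap9. Without wild-type replicate 2 they were -0.0202 for Gimap3 and -0.0711 for Gimap8. Without knockout replicate 1 Gimap9 had 0.0545, and without knockout replicate 3 Gimap8 had -0.0127. Leaving out 1 library at a time, the ranges were -0.0202 to 0.1525 for Gimap3, -0.1481 to 0.0135 for Gimap4, -0.1543 to 0.1655 for Gimap5, -0.1896 to 0.0111 for Gimap6, -0.0711 to 0.1503 for Gimap8 and -0.0546 to 0.0545 for Gimap9. Gimap1 and Gimap7 stayed lower in knockout in all 14, with ranges of -0.168 to -0.0591 and -0.1569 to -0.0389 when a library was left out. The cause of these shifts was not tested.

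Over all genes, 0 were called by edgeR with genotype alone, 46 by DESeq2, 16 by edgeR with the replicate block, 247 by DESeq2 with the replicate block, and 0 to 1 when a library was left out. In the lists, DESeq2 called 1 resting T cell gene with and without the block (Ccr7) and, with the block, 1 of the other GTPases (Rap1a, adjusted p = 0.00618). The labels do not tie libraries by number. Same-numbered libraries deviated together with correlations of 0.218, 0.136 and 0.077 over 10690 genes, each library correlating best with its own number, a hint from the data and not the labels. The fold changes of the authors' deposited table differed from those of DESeq2 by a median of 0.00018 log2 units with the replicate block and 0.019 without it. Of the 247 calls in the deposited table, 244 were also made with the block and 45 without it.

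Levels per length depend on the length taken. With the longest protein-coding transcript they were 515 for Gimap1, 1219 for Gimap3, 95.9 for Gimap5, 392 for Gimap7, 54.0 for Gimap8 and 231 for Gimap9 CPM per kilobase. Scaling moved the median log2 fold change of all genes to between -0.0072 and 0.0045. With 3 libraries per genotype, the smallest difference that could have been called was not tested, and the printed intervals do not give it.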
